A study of Mus musculus with 12 samples.

Results

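Krüppel-like factors (KLFs) were examined as 10 genes, Klf2, Klf3, Klf4, Klf5, Klf6, Klf7, Klf9, Klf10, Klf13 and Klf15, through the open chromatin at and around them. A peak was taken as a member when its centre lay in the GRCm38 gene body of one of these genes or within 10 kb of it. By this rule 20 of the 34118 peaks in the wild-type (WT) list and 16 of the 27187 peaks in the Runx1 knockout (KO) list were members. The cells were C2C12, an established mouse myoblast line, kept in growth medium (20% fetal bovine serum) and collected near confluence, labelled day 0. Open chromatin was assayed by ATAC-seq, in which the Tn5 transposase cuts accessible DNA in isolated nuclei. One group was labelled WT or control and the other was labelled Runx1KO, with 3 samples in each group. The labels do not say whether the knockout line is 1 clone. All deposited intervals and values came from the replicate 1 library of each genotype, so no value below has a replicate error and no test between the genotypes was possible. The 6 samples from day 2 of differentiation medium were not analysed here.

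KLFs are transcription factors that bind GC boxes and CACCC boxes through a row of C2H2 zinc fingers at their carboxyl end. The family is commonly divided by the partners of the amino-terminal part of the protein. Klf2, Klf4, Klf5, Klf6 and Klf7 belong to a branch known mainly for activation. Klf3 recruits the corepressor CtBP, and Klf9, Klf10 and Klf13 recruit the corepressor Sin3a. In skeletal muscle, KLF proteins are known for roles in myoblast growth and differentiation and, for Klf15, in amino acid and lipid metabolism.

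Runx1, the targeted gene, had 19 WT peaks and 12 KO peaks in the gene or within 10 kb. The lists give no readout of the edited allele. Of 8 genes that mark myoblasts, 5 had a peak in each list: Myod1, Cdh15, Des and Chrna1 in both, Pax7 in the WT list and Pax3 in the KO list. Myf5 and Myog had none. Peaks were also present at 4 of 4 stromal, 2 of 2 endothelial, 1 of 3 blood and 1 of 2 nerve marker genes and at 0 of 2 liver marker genes, in each list, so a peak near a marker gene did not separate myoblasts from other cell types. Sequencing depth is unknown.

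Klf4 was the only listed gene with peaks in the WT list and none in the KO list within 10 kb. This depended on the window. In gene bodies alone Klf5 and Klf9 also had 1 WT peak and 0 KO peaks, and Klf3 had the reverse, 0 WT peaks and 1 KO peak. Within 20 kb Klf4 had 1 KO peak, so that no listed gene showed the pattern of WT peaks without KO peaks. No share of all genes was computed for these windows. Klf15 had no peak in either list. The other 8 genes had, in both lists, a peak at the start of the gene or, for Klf5 and Klf10, over one end of it. A WT peak was thus present at 9 of the 10 genes and a KO peak at 8, beside 64.6% and 60.8% of all protein-coding genes. Of the 20 WT peaks, 5 were WT specific (25.0%, 95% Wilson interval 11.2 to 46.9, counting error only), and over the whole WT list the share was 27.3%. Of the 16 KO peaks, 1 was KO specific (6.25%, interval 1.11 to 28.3), and over the whole KO list the share was 9.59%. Both shares at the KLF genes were therefore near those of all peaks. The WT specific peaks were 2 at Klf4 and 1 each at Klf5, Klf9 and Klf10, and the KO specific peak lay at Klf13. At 4 genes, Klf2, Klf3, Klf6 and Klf7, every peak was shared by the overlap of at least 1 bp. Of the 9 listed genes with a WT peak, 4 had a WT specific one, beside 39.1% of all protein-coding genes with a WT peak. A KO specific peak was found at 1 of the 8 with a KO peak, beside 12.3% of protein-coding genes with a KO peak.

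**Figure D1:**
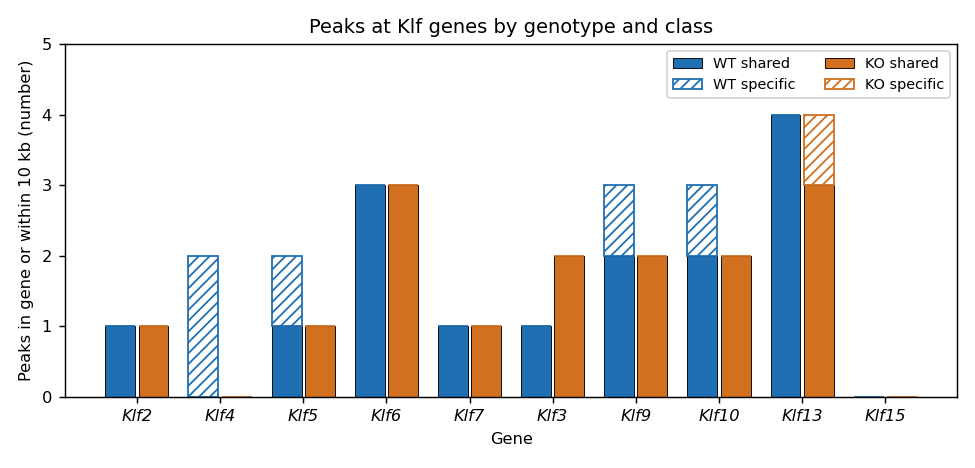
Number of WT and KO peaks in each gene or within 10 kb of it (y axis, number of peaks), with shared peaks as filled bars and peaks specific to a genotype as hatched bars. Klf4 has 2 WT specific peaks and no KO peak, Klf15 has none in either list, and Klf13 has the only KO specific peak.

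The RefSeq promoter table (GRCm38.p6) held 8 of the 10 genes: Klf2, Klf3, Klf4, Klf6, Klf7, Klf9, Klf13 and Klf15. A promoter window there runs from 250 bases before the start site to 50 bases after it. A WT peak lay on the window of 7 of the 8 genes and a KO peak on that of 6. Over all 32619 windows, 29.6% held a WT peak and 27.0% a KO peak. None of the 6 windows with a KO peak lacked a WT peak, which was the case for 3.1% of all windows with a KO peak. The 250 bases before the start are printed for 4 genes that show the 4 patterns found: Klf2 with a peak in both lists, Klf4 with a WT peak only, Klf3 with a WT peak that is split in the KO list, and Klf15 with no peak. They are written 5′ to 3′ on the strand of the gene, and the capitals mark GC boxes (GGGCGG) and CACCC boxes (CACCC) on either strand. The stretches are chr8:72318812-72319061 (plus strand) for Klf2, chr4:55532476-55532725 (minus strand) for Klf4, chr5:64803271-64803520 (plus strand) for Klf3 and chr6:90462326-90462575 (plus strand) for Klf15.
Klf2: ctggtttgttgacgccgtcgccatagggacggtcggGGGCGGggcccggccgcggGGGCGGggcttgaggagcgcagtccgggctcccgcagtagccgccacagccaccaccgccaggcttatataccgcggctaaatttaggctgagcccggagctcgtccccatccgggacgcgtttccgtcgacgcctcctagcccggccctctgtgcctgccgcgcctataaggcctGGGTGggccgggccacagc
Klf4: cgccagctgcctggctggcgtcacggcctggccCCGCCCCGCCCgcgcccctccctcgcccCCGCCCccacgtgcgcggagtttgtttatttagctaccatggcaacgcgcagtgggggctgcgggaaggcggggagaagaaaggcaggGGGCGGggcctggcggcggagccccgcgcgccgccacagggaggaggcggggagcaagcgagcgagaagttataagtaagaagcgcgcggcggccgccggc
Klf3: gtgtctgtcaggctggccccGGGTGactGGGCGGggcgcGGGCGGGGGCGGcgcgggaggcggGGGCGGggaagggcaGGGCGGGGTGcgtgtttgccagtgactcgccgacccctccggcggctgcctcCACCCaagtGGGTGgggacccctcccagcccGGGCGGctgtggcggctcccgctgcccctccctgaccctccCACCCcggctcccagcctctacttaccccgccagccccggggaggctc
Klf15: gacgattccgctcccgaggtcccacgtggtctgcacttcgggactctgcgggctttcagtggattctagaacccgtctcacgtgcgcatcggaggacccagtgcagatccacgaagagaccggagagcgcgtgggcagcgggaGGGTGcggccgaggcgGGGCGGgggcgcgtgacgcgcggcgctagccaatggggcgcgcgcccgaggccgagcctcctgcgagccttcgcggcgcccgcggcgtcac
These promoters were rich in G and C. The GC content of the 250 bases was 71.2% at Klf2, 74.0% at Klf4, 78.4% at Klf3 and 72.0% at Klf15, beside 71.6% at Klf13, 64.8% at Klf6, 59.6% at Klf9 and 59.2% at Klf7. The median was 71.4% for these 8 promoters, 61.2% for the 9653 promoters with a WT peak and 52.4% for all promoters.

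The letters of the KLF binding boxes were found in most of these promoters. The GC box was present in 7 of 8, all but Klf9, with 6 copies at Klf3, 4 at Klf4, 3 at Klf13, 2 at Klf2 and 1 each at Klf6, Klf7 and Klf15. It was present in 33.0% of all promoters and in 63.0% of those with a WT peak. CACCC was present in 6 of 8, all but Klf4 and Klf6, with 5 copies at Klf3 and 3 at Klf7, and in 52.1% of all promoters and 56.5% of those with a WT peak. The E-box letters CANNTG were present in 6 of 8, in 66.2% of all promoters and in 54.1% of those with a WT peak. As CACGTG they occurred at -182 from the start of Klf4, at -43 at Klf6, and at -228 and -172 at Klf15. The RUNX words TGTGGT and TGCGGT, the ETS word CCGGAA and the word TATAAA were in 0 of the 8 stretches, and in 13.9%, 5.1%, 12.1% and 12.4% of all promoters. In promoters with a WT peak these shares were 10.7%, 8.4%, 26.0% and 5.24%. Both strands were searched, the GC box and CACCC can overlap each other, and a match or its absence describes these letters only.

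Among the genes of the activating branch, Klf4 is known as a reprogramming factor and a regulator of cell cycle exit. It lies at chr4:55527137-55532475 on the minus strand. The first of its WT peaks, at chr4:55532500-55532734, was 235 bp wide with a deposited fold enrichment over local background of 6.04 and a −log10 q of 9.31. Its summit lay 61 bp before the start site, and it covered 226 of the 250 bases printed for Klf4. An end of the predicted gene Gm12506 lies within 1 kb of it. The second, at chr4:55530252-55530489, lay inside the gene with its summit 2067 bp past the start. It was 238 bp wide with a fold of 6.86 and a −log10 q of 12. Both were weak within the WT list, at percentile 25.2 and 36.1 of −log10 q.

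The pattern at Klf4 can be set beside all genes. Of the 9653 promoter windows with a WT peak, 1116 (11.6%) had no KO peak on them. Among WT peaks on a promoter window in the same decile of −log10 q as the Klf4 promoter peak (8.13 to 10.4), 168 of 502 (33.5%) were WT specific. Among all WT peaks of that decile the share was 47.9%. Of the 13971 protein-coding genes with a WT peak in the gene or within 10 kb, 1067 (7.64%) had no KO peak, and Klf4 was 1 of 9 listed genes. Exactly 2 WT specific peaks and no other peak were found at Klf4 and 158 other protein-coding genes (1.14% of those with a WT peak), of which Phf3, Chst10 and Itm2c come first along the genome. Just outside the 10 kb limit a shared pair was present, with the WT peak chr4:55542721-55543161 (fold 15.1, −log10 q 34.9) 10.2 kb from the gene and the KO peak chr4:55542733-55543171 (fold 11.4, −log10 q 27.0) 10.3 kb from it. Between the retained KO neighbours of the Klf4 peaks, which lie 180 kb below and 12.2 kb above the intragenic peak, 2 KO call numbers were missing. Whether either removed call lay at Klf4 cannot be told from the lists.

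**Figure D2:**
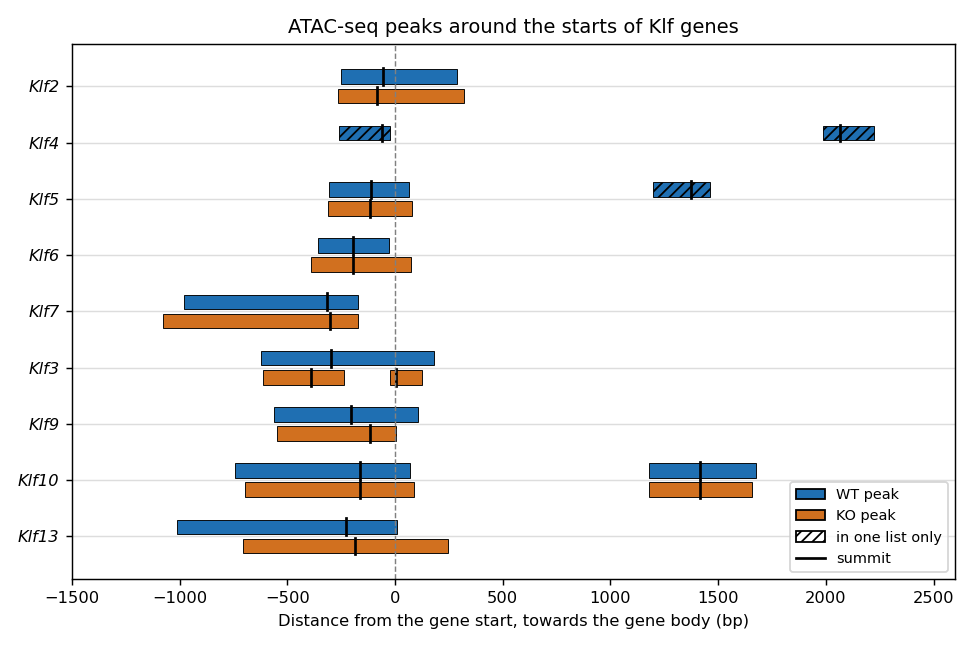
Peaks around the starts of 9 Klf genes, with the distance from the start in bp on the x axis and the gene body to the right, WT above KO for each gene, hatching for peaks in 1 list only and a black line at each summit. For Klf5 and Klf10 the distance is from the gene end under the strongest peak. At Klf7 the gene interval used for assignment also extends to the left of the start. Klf4 has WT peaks only, and at Klf3 2 KO peaks lie under 1 WT peak.

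Klf2, known for endothelial quiescence and T cell trafficking, lies at chr8:72319062-72321654 on the plus strand and had a single peak in each list. The WT peak chr8:72318810-72319350 was 541 bp wide, with a fold of 17.3 and a −log10 q of 54.5. The KO peak chr8:72318798-72319383 was 586 bp wide, with a fold of 15.8 and a −log10 q of 59.5. Both covered all 250 bases printed for Klf2. Their summits lay 54 and 85 bp before the start.

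Klf5, a growth-associated factor that has been tied to myoblast differentiation, lies at chr14:99298691-99313412. A shared peak covered the lower end of the gene, at chr14:99298385-99298754 in the WT list (fold 14.9, −log10 q 52.6) and chr14:99298380-99298770 in the KO list (fold 12.8, −log10 q 41.9). The summits of the pair were 1 bp apart. The WT specific peak chr14:99299887-99300154 lay inside the gene, was 268 bp wide and had a fold of 5.24 and a −log10 q of 8.56. No KO call number was missing between the retained KO peaks on its sides, 1.12 kb below it and 24.4 kb above it. The other 4 of the 5 WT specific peaks lay beside at least 1 missing KO number. Over all WT specific peaks that could be examined, a KO number was missing beside 87.1%.

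Klf6, an immediate response gene known from growth control, lies at chr13:5861489-5870393 on the plus strand and had 3 shared peaks. The peak at the start was at chr13:5861131-5861461 in the WT list (331 bp, fold 13.3, −log10 q 41.8) and chr13:5861101-5861561 in the KO list (461 bp, fold 9.07, −log10 q 25.1), with summits 2 bp apart. The peak inside the gene was at chr13:5865997-5866462 (fold 9.81, −log10 q 28.0) and chr13:5865991-5866404 (fold 6.35, −log10 q 14.3). The peak past the far end was at chr13:5871497-5871777 (fold 11, −log10 q 21.7) and chr13:5871461-5871927 (fold 9.98, −log10 q 20.9). All 3 sites were thus open in both lists, and no other peak lay within 10 kb.

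Klf7, which is known from neuron and fat cell differentiation, lies at chr1:64029448-64122345 on the minus strand and had 1 shared peak although it is the longest of the 10 genes, at 92898 bp. The WT peak chr1:64121559-64122369 was 811 bp wide with a fold of 17.6 and a −log10 q of 88.0. The KO peak chr1:64121562-64122468 was 907 bp wide with a fold of 12.4 and a −log10 q of 51.6. Their summits lay 314 and 301 bp before the start in the promoter table, and their centres also lie in the predicted gene Gm35880.

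Klf3, the CtBP-binding repressor of the set, lies at chr5:64803521-64832901 on the plus strand. Its promoter was covered by 1 WT peak, chr5:64802898-64803702, 805 bp wide with a fold of 9.09 and a −log10 q of 19.4. The KO list had 2 peaks under it, chr5:64802908-64803283 (376 bp, fold 8.19, −log10 q 18.1) and chr5:64803496-64803647 (152 bp, fold 5.22, −log10 q 7.78). The stretch between them, chr5:64803284-64803495, is 212 bp long and runs from -237 to -26 from the start. It holds most of the printed Klf3 sequence, of which 250 bases lay under the WT peak and 38 under KO peaks. Among shared WT peaks of all widths, 0.403% had 2 or more KO partners. The Klf3 peak is wider than the median shared WT peak of the list (424 bp), and no share was computed for peaks of like width. The WT centre also lies in the predicted gene Gm38457.

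The Sin3a-binding branch had 10 WT peaks and 8 KO peaks at its 3 genes, of which 2 WT peaks and 1 KO peak were specific. The activating branch had 9 WT peaks and 6 KO peaks at its 5 genes, of which 3 WT peaks and 0 KO peaks were specific. Over the whole lists 27.3% of WT and 9.59% of KO peaks were specific, and these counts are too small to be set apart from those shares. Klf9, a target of glucocorticoid and thyroid hormone, lies at chr19:23141226-23168129 on the plus strand. The peak at its start was chr19:23140663-23141331 in the WT list (669 bp, fold 11.7, −log10 q 46.2) and chr19:23140679-23141230 in the KO list (552 bp, fold 13.0, −log10 q 56.0). A second shared peak lay upstream, inside 2410080I02Rik, at chr19:23135469-23136273 (fold 7.19, −log10 q 13.5) and chr19:23135461-23136180 (fold 5.89, −log10 q 10.5). The WT specific peak chr19:23150998-23151190 lay inside the gene, 193 bp wide, with a fold of 7.66 and a −log10 q of 10.0. Its summit was 9925 bp past the start, and 2 KO call numbers were missing beside it.

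Klf10, also named TGF-beta inducible early gene, lies at chr15:38291464-38300711. The peak over its upper end was chr15:38300640-38301454 in the WT list (815 bp, fold 12.2, −log10 q 88.9) and chr15:38300625-38301407 in the KO list (783 bp, fold 8.42, −log10 q 56.6), with summits 3 bp apart. A second shared peak lay inside the gene, at chr15:38299036-38299533 (fold 6.18, −log10 q 27.5) and chr15:38299052-38299532 (fold 5.64, −log10 q 27.4), with summits 2 bp apart. Both sites also lie in the predicted gene Gm35248. The WT specific peak chr15:38283990-38284134 lay 7402 bp below the gene and was the narrowest and weakest of the 5, 145 bp wide with a fold of 5.02, a −log10 q of 5.28 and a percentile of 7.7 in the list. One KO call number was missing beside it.

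Klf13, known from lymphocyte chemokine expression, lies at chr7:63886351-63938915 on the minus strand and had the most peaks of the set, 4 in each list. The peak at its start was chr7:63938907-63939929 in the WT list (1023 bp, fold 10.3, −log10 q 39.9) and chr7:63938671-63939620 in the KO list (950 bp, fold 9.52, −log10 q 36.3), with summits 44 bp apart. Inside the gene, a shared peak lay at chr7:63896884-63897427 (fold 13.7, −log10 q 31.1) and chr7:63896890-63897428 (fold 8.56, −log10 q 14.4), within the predicted gene Gm27252. The WT peaks chr7:63924912-63925191 (fold 3.86, −log10 q 3.02) and chr7:63925355-63925818 (fold 8.82, −log10 q 16.3) both lay under 1 KO peak, chr7:63924804-63925884, 1081 bp wide with a fold of 6.91 and a −log10 q of 10.7. This is the reverse of the arrangement at Klf3, and was found for 1.3% of shared KO peaks of all widths. The KO specific peak chr7:63887411-63887590 lay inside the gene near its far end. It was 180 bp wide with a fold of 4.61 and a −log10 q of 4.89, at percentile 3.76 of the KO list, and 1 WT call number was missing beside it, as was the case for 87.4% of KO specific peaks.

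Klf15, the metabolic KLF of muscle, liver and heart, lies at chr6:90461043-90491803 on the plus strand. Neither list had a peak in the gene or within 10 kb. The nearest WT peak, chr6:90369403-90369829, was shared and lay 91.2 kb away. The nearest KO peak, chr6:90561345-90561607, was KO specific with a −log10 q of 5.25 and lay 69.5 kb away. The printed Klf15 promoter has 1 GC box and 1 CACCC box, and its GC content was above the median of promoters with a WT peak.

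Within each list, the strongest member peaks were those at gene starts or, for Klf5 and Klf10, over a gene end. In the WT list, 5 of 20 member peaks were in the top 10% of −log10 q: the start or end peaks of Klf10 (percentile 99.0), Klf7 (98.9), Klf2 (93.7), Klf5 (93.1) and Klf9 (90.3). In the KO list, 4 of 16 were in the top 10%: Klf2 (96.7), Klf10 (96.1), Klf9 (95.9) and Klf7 (94.6), and Klf5 was at 89.8. The values of the lists depend on library depth, so no change between genotypes is read from them. The 5 WT specific peaks were 145 to 268 bp wide with a median of 235 bp, and the 15 shared WT peaks were 280 to 1023 bp wide with a median of 541 bp. Over the whole WT list these medians were 250 and 424 bp. The WT specific peaks ranged from 5.28 to 12 in −log10 q (median 9.31) and the shared ones from 3.02 to 88.9 (median 31.1), with whole-list medians of 8.38 and 21.1.

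**Figure D3:**
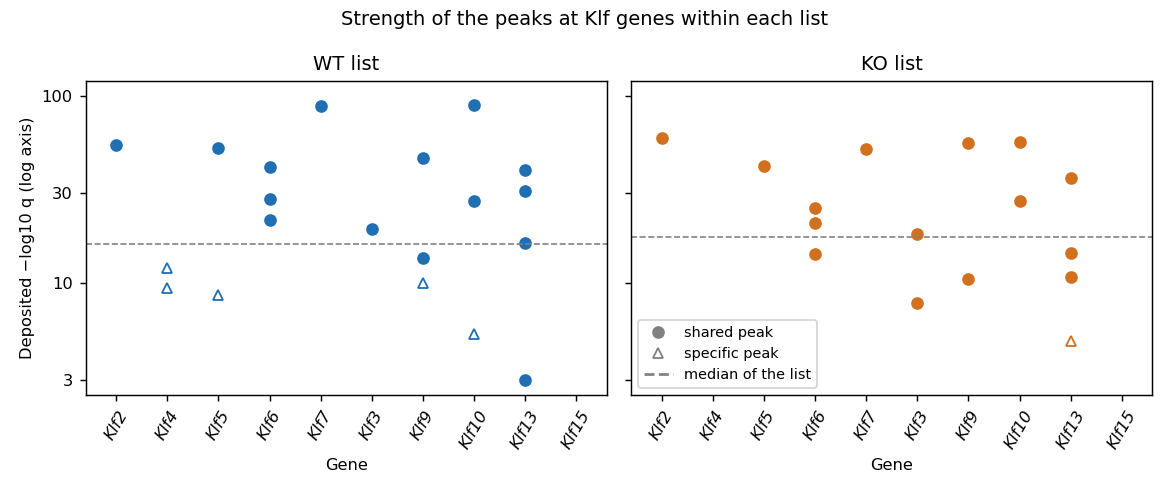
Deposited −log10 q (log axis) of every member peak by gene, in the WT list on the left and the KO list on the right, with circles for shared and triangles for specific peaks and a dashed line at the median of the whole list. All 5 WT specific peaks and the KO specific peak lie under the median of their list (16.1 and 17.6).

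At 12 sites of the KLF genes 1 WT peak met 1 KO peak. The 24 edges of these pairs differed by 1 to 309 bp, with a median of 23 bp. The largest differences were at the start of Klf13, whose KO peak lay 236 bp lower at one edge and 309 bp lower at the other. In the 12 pairs the KO peak was wider in 5 and narrower in 7, by -117 to 186 bp, with a median difference (KO minus WT) of -11 bp. Over all 24065 such pairs the median was 5 bp. The summits of the 12 pairs lay at most 90 bp apart, with a median of 13.5 bp beside 30 bp over all such pairs. With the 4 merged or split pairs at Klf3 and Klf13 included, the differences ran from -653 to 801 bp, and the KO peak was wider in 7 of 16, beside 52.9% of all overlapping pairs. Together the WT peaks at the KLF genes covered 9.78 kb (20 peaks, mean 489 bp) and the KO peaks 9.04 kb (16 peaks, mean 565 bp).

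**Figure D4:**
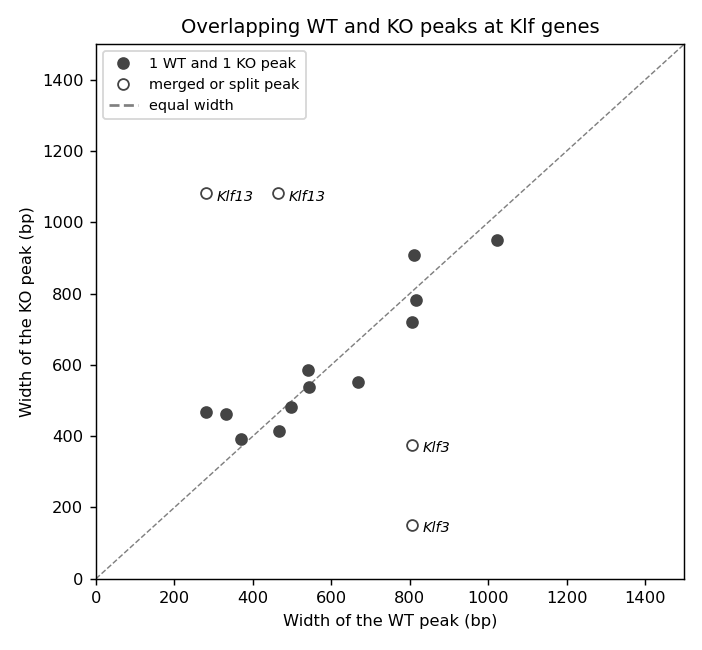
Width in bp of each overlapping WT peak (x axis) and KO peak (y axis) at the KLF genes, with filled points for pairs of 1 WT and 1 KO peak, open points for split or merged peaks and a dashed line of equal width. For the 12 filled points the KO width minus the WT width ran from -117 to 186 bp. The open points at Klf3 and Klf13 lie far below and far above the line.

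The rest of the family, 16 further KLF and SP genes, had 25 WT peaks and 17 KO peaks. Of the WT peaks 8 were WT specific (32.0%, interval 17.2 to 51.6, beside 27.3% of the whole list), and of the KO peaks 0 were KO specific, which allows a share of up to 17.6% and so holds the 9.59% of the whole KO list. The WT specific peaks were 2 each at Sp2 and Sp3 and 1 each at Klf12, Sp1, Sp6 and Sp8. Sp1 and Sp3 are widely expressed GC box factors. Klf12, a CtBP-binding relative of Klf3, had a single WT specific peak inside the gene (−log10 q 7.79) and no KO peak. The nearest KO peak lay 39.1 kb from Klf12. Within 10 kb, Klf12 and Klf4 were the only ones of the 26 KLF and SP genes with WT but no KO peaks. A WT peak was present at 9 of the listed and 12 of the further genes. Among all protein-coding genes with a WT peak, 7.64% had no KO peak, and the counts here are too small to be set apart from that share. Klf14, Klf17, Sp5 and Sp9 had no peak in either list. At 8 genes for corepressors and other partners of KLF proteins, 4 of 27 WT peaks were WT specific (14.8%, interval 5.92 to 32.5) and 0 of 23 KO peaks were KO specific, which allows up to 13.0%, a limit that also lies above 9.59%. These WT specific peaks were 2 at Fhl3, a LIM protein of muscle, and 1 each at Ctbp1 and Ctbp2. The one assigned to Ctbp1, chr5:33237817-33238541, lay 9544 bp below the gene, close to the 10 kb limit. It was 725 bp wide with a fold of 11.6 and a −log10 q of 27.5, above every WT specific peak at the 10 KLF genes.

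The specific lists carry a column without a name that repeats the start of some peaks. None of the 5 WT specific peaks at the KLF genes was marked in it, which allows a share of up to 60%, beside 10.7% of all WT specific peaks. The KO specific peak at Klf13 was not marked either, beside 2.22% of all KO specific peaks that were.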

How the data were processed

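ATAC-seq peak lists of C2C12 cells in growth medium were used, 5 in all: the full WT and KO lists, a shared list and 1 specific list per genotype. Genome build mm10 is named in the submitters' processing notes. The aligner, the peak caller and the Tn5 offset are not given in the sources used here. Per the file layout, the deposited values of each peak are a fold enrichment (a ratio to local background), a −log10 p, a −log10 q and a score made from the −log10 q by the authors. Every deposited peak name holds the replicate 1 label, and skipped peak numbers show that calls had been removed by a rule not stated. Replicates 2 and 3 have no values of their own.

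Peaks were assigned by their centre to genes of RefSeq GRCm38.p6, which was also the source of start sites and sequences. The gene table has no exons, so exonic and intronic peaks were not separated. Peaks were shared with an overlap of 1 bp. Class came from the deposited lists. Shares have 95% Wilson intervals, which cover counting error only, as do limits from 3 counts for a share of 0. A missing call number is a skipped number between the neighbouring retained peaks of the other list. No test between genotypes was made, since each has 1 library. Functions were checked on simulated data and against bedtools 2.31.1, where 4 of 4 checks passed. Python 3.11.15, numpy 2.4.6, pandas 2.3.3, scipy 1.17.1 and matplotlib 3.10.9 were used.

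All 10 genes are named, as are relatives and partners with a specific peak, and up to 3 genes with the pattern of Klf4. The members and lists were chosen with earlier results of these data known. Protein sequences were planned and not used here. Alternatives in the distance, assignment, peak point, threshold and overlap were computed.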

Additional observations from a re-analysis of the deposited data

How the results depend on the processing

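The specific shares at the KLF genes rested on few peaks and kept within their intervals under the alternatives computed, with 1 exception. With both lists limited to a −log10 q of at least 10, the KO specific share was 0.0% (0 of 14 peaks, which allows up to 21.4%). The KO specific peak at Klf13 is weaker and was lost by construction, and no retained KO peak became specific. The WT specific share ranged from 12.5% (that limit) to 40% (8 of 20, a reciprocal overlap of 50%). The whole-list shares given above hold for the deposited classes. They were not recomputed for these settings, so the shares under them have no like background. The reciprocal overlap raised the KO specific share from 6.25% to 25.0% (4 of 16), since it turned the split and merged peaks into specific ones: 1 WT and 2 KO peaks at Klf3, so that not every peak there was shared, and 2 WT peaks at Klf13, where KO specific peaks rose from 1 to 2. The pattern of Klf4, WT peaks without KO peaks, also held at Klf5 and Klf9 in gene bodies alone and at no listed gene within 20 kb or by the nearest gene end. Klf3 had the reverse in gene bodies alone, with 0 WT peaks and 1 KO peak. The counts followed the distance to the gene. In gene bodies alone there were 10 WT and 8 KO peaks covering 4.3 and 4.34 kb. Assigned to the nearest gene end there were 84 WT and 66 KO peaks covering 34.5 and 31.0 kb, of which 27.4% and 9.09% were specific. With a −log10 q of at least 10, a WT peak was left on 6 promoter windows, and the Klf4 promoter peak was lost. Of 280 recomputed counts at single genes 223 were equal to or within 1.5 times the reported count, 35 were higher and 22 lower. The 223 include counts of 0 that stayed 0, such as all those at Klf15. A peak count of 0 cannot rise in a narrower window, so the 223 are no measure of stability. No paired analysis was possible because the lists hold values of 1 library per genotype, and no library could be left out for the same reason. Unknown depth limits any comparison between the lists, both of strength and of which peaks were called in only 1 of them.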

Other observations

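Peaks whose nearest protein-coding gene end belonged to a KLF gene extended far beyond 10 kb at several of the genes. For Klf4 there were 16 in the WT list, of which 7 were WT specific, and 8 in the KO list, of which none was KO specific. Over the whole lists 27.3% of WT and 9.59% of KO peaks were specific, and these counts at single genes are small. The peaks nearest to Klf4 reached 343 kb from the gene in the WT list and 202 kb in the KO list. The strongest WT specific one by −log10 q was chr4:55707954-55708198 (fold 11.4, −log10 q 19.0), 175 kb away, and the strongest shared one was chr4:55651055-55651646 (fold 14.8, −log10 q 45.0), 119 kb away, with its KO partner at chr4:55651067-55651674 (fold 12.8, −log10 q 43.2). Klf6 had 22 in the WT list by this assignment, with 6 WT specific peaks that all lay at least 135 kb from the gene, and 17 in the KO list with 1 KO specific peak. Klf7 had 1 WT specific peak among 11 and 3 KO specific peaks among 12. The KO specific peaks at Klf7 lay 23.9, 52.3 and 61.4 kb past the far end of the gene, with a −log10 q of 20.2, 14.4 and 12.2. Klf15 had none by this assignment either. These counts are descriptions of 1 library per genotype, and which gene a distal peak acts on was not tested.

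In the unnamed column of the specific lists, 1 of the 7 WT specific peaks nearest to Klf4 and 1 of the 6 nearest to Klf6 were marked. Over all WT specific peaks the share was 10.7%, and these counts are too small to be set apart from it. The marked peaks lay 110 kb from Klf4 and 296 kb from Klf6.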
